A study of Mus musculus with 9 samples.

Results

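Expression of 214 genes was graded across 3 clones of CD8 T cells, so that Rop7-I T cells lay between Rop7-II and Rop7-III T cells in the order set by the transcript of Cd5. The genes were chosen by these measured values: a maximum over 5 TPM (transcripts per 1000000, a share of all transcripts that accounts for gene length), no overlap between the replicates of any 2 clones, means of log2(TPM + 1) in that order, and a difference of at least 0.5 between Rop7-III and Rop7-II. Of 10037 genes with a maximum over 5 TPM, in a table of 24060, 135 rose (1.35%) and 79 fell (0.787%) from Rop7-II to Rop7-III. Because the rule used these values, the differences below describe the genes and are given without a test.

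The cells came from 3 lines of transnuclear mice, named Rop7-I, Rop7-II and Rop7-III. Such mice are cloned from the nucleus of 1 CD8 T cell, so that each line carries the rearranged T-cell receptor (TCR) genes of that cell at their own loci, and all 3 receptors recognise the Rop7 epitope of Toxoplasma gondii on the MHC class I molecule H-2Ld. The lines had been backcrossed to BALB/c for several generations, per the study's methods. The mice were homozygous for the receptor, per the legend of the study's expression data. Splenocytes of all groups were held overnight in medium that contained 10 ng per ml of IL-2 but no antigen, and CD3+ CD8+ cells binding an H-2Ld-Rop7 tetramer were sorted to a purity of 90 to 95%. Each clone had 3 biological replicates, 9 samples in all. Each clone is a single mouse line, so that the receptor and any other difference between the lines cannot be told apart. The ages of the mice are not given in the sources used here.

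CD5 is a surface glycoprotein that dampens TCR signalling. Its level on a naive T cell is set in the thymus and maintained in the periphery by contacts of the TCR with self-peptides on MHC molecules, and it is commonly used as a measure of how strongly a T cell reacts to self. The order of the clones by Cd5 therefore asks which other transcripts follow the same order in cells that have not met their foreign antigen.

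All 8 markers of CD8 T cells examined were present in every sample and summed to between 8314 and 9192 TPM. Rop7-II replicate 1 was set apart by 14 of 14 B-cell markers (2586 TPM summed, against 157 to 1110 TPM in the other 8 samples) and 13 of 13 myeloid markers (896 TPM, against 148 to 367 TPM). No marker in the lists of B, myeloid, CD4, NK and erythroid cells was graded. A gene raised in only 1 replicate tends to overlap another clone, so this absence says little about other cells. Median log2 differences of the myeloid markers were -0.77 for Rop7-I against Rop7-II and -0.69 for Rop7-III against Rop7-I. For B-cell markers they were 0.42 and -1.47. Of the 79 falling genes, 22 were highest in Rop7-II replicate 1 (18 and 39 in replicates 2 and 3). Of the 135 rising genes, 56 were lowest there (29 and 50 in replicates 2 and 3). Without Rop7-II replicate 1 the rule took 168 rising and 87 falling genes, with 126 of the 135 and 73 of the 79 among them. The 5 CD4 and 7 NK markers summed to at most 39.3 and 6.04 TPM in a sample. The 8 erythroid markers reached 2491 TPM in Rop7-I replicate 2, against 28.1 to 493 TPM in the other samples.

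The promoters of Cd5 and of the 2 rising and 2 falling genes with the largest differences are shown because these genes span the gradient in both directions. Each line gives 250 bases before and 50 bases after a RefSeq start of transcription on GRCm38, read 5′ to 3′ on the strand of the gene. Capitals mark matches on either strand to any of 11 short motifs: the cell cycle homology region TTTGAA, the CCAAT box CCAAT, the E2F motif TTCCCGCC, the NFAT core GGAAA, the AP-1 motif TGANTCA, the ETS motif CCGGAA, the RUNX motif TGTGGT, the TCF/LEF motif CTTTGA, the E-box CAGGTG, the KLF motif CCACCC and the TATA box TATAAA. The first and the TCF/LEF motif share 5 letters and can overlap. Cd5 lies at chr19:10738925-10739224 on the minus strand, Msgn1 at chr12:11208899-11209198 on the minus strand and Dapl1 at chr2:59484403-59484702 on the plus strand. Slc6a19 lies at chr13:73692587-73692886 and Tmie at chr9:110880024-110880323, both on the minus strand. The window of Slc6a19 lies inside the annotated span of that gene (chr13:73679745-73700780) and does not reach its 5′ end.
Cd5: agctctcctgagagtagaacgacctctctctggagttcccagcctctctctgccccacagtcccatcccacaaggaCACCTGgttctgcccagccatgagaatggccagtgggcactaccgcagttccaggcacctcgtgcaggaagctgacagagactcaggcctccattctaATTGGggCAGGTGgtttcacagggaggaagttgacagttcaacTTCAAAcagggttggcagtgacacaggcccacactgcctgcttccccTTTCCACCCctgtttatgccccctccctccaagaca
Msgn1: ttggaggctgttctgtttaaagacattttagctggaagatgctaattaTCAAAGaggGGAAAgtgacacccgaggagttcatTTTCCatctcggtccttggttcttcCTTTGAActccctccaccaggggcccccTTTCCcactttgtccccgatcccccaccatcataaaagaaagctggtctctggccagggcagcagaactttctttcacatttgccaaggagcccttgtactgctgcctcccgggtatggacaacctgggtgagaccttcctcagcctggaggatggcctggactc
Dapl1: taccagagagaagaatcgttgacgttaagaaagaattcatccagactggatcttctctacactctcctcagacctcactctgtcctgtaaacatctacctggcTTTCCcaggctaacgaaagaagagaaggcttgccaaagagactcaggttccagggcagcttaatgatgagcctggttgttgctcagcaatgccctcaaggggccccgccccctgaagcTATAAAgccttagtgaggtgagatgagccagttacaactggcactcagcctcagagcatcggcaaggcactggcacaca
Slc6a19: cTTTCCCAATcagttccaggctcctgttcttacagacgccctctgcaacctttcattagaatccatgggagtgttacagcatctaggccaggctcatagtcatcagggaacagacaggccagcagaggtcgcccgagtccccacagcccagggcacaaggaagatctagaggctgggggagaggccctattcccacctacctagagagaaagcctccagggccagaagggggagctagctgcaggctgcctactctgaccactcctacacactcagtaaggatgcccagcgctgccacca
Tmie: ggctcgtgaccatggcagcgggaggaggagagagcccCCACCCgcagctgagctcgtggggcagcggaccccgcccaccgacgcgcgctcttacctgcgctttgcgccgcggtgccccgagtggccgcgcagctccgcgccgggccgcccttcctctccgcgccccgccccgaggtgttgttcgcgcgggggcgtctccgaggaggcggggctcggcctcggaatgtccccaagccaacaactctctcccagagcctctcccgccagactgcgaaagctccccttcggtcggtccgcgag

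The window of Cd5 held an inverted CCAAT box 76 bases before the start and 2 E-boxes, the nearer of which began 69 bases before the start. The window of Dapl1 held a TATA box 29 bases before the start, that of Msgn1 held 3 NFAT cores and 2 TCF/LEF motifs, and that of Tmie held a single KLF motif. Promoters were matched for 103 of the rising genes, 67 of the falling genes and 8079 of the 10037 genes over 5 TPM. The ETS motif was in 14.6% of the rising, 11.9% of the falling and 32.2% of the promoters of genes over 5 TPM, against 15.2% of all 27025 promoters in the table and 19.7% of those of genes in the other 4 orders. The CCAAT box was in 46.6% of rising, 38.8% of falling and 39.5% of the promoters of genes over 5 TPM. For the NFAT core these shares were 46.6%, 52.2% and 59.6%, and for the E-box 19.4%, 19.4% and 16.5%. The KLF motif was in 33.0% of rising and 47.8% of falling promoters, against 35.7% of those of genes over 5 TPM. The median GC content was 62.0% in rising, 61.3% in falling and 61.0% in the promoters of genes over 5 TPM. These shares describe letters in a window and no test was run on them.

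Cd5 was at 33.4, 52.9 and 37.9 TPM in the 3 Rop7-II replicates, 72.9, 71.5 and 58.5 TPM in Rop7-I, and 176, 181 and 175 TPM in Rop7-III. Between Rop7-II and Rop7-III its mean log2(TPM + 1) differed by 2.10 (standard error 0.15), and the Rop7-I mean lay at 34.0% of the way. The step from Rop7-I to Rop7-III was thus the larger of the steps. Nr4a1, an immediate early gene of TCR signalling often read alongside Cd5, was not graded. It was at 9.70, 1.59 and 2.19 TPM in Rop7-II, 2.74, 4.69 and 4.79 in Rop7-I, and 2.69, 4.70 and 2.85 in Rop7-III, and the 3 clones overlapped. Its difference of -0.04 became 0.59 without Rop7-II replicate 1, the sample with the high B-cell and myeloid markers. The other Rop7-II samples were below all samples of Rop7-I and Rop7-III, which overlapped each other.

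The 3 clones can be ordered in 6 ways, and the rule was applied to each. The order of Cd5 was the most frequent, and its reverse came next. Rop7-I lay in the middle for 214 of the 363 genes ordered without overlap (59.0%), Rop7-III for 83 (22.9%) and Rop7-II for 66 (18.2%). Of the other orders, 50 genes (0.498%) had Rop7-I highest and Rop7-II lowest, and 42 (0.418%) had Rop7-I highest and Rop7-III lowest. Rop7-I was lowest for 33 genes (0.329%) with Rop7-II highest, and for 24 (0.239%) with Rop7-III highest. Without the minimum difference the rule ordered 996 genes, 536 of them (53.8%) with Rop7-I in the middle.

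**Figure D1:**
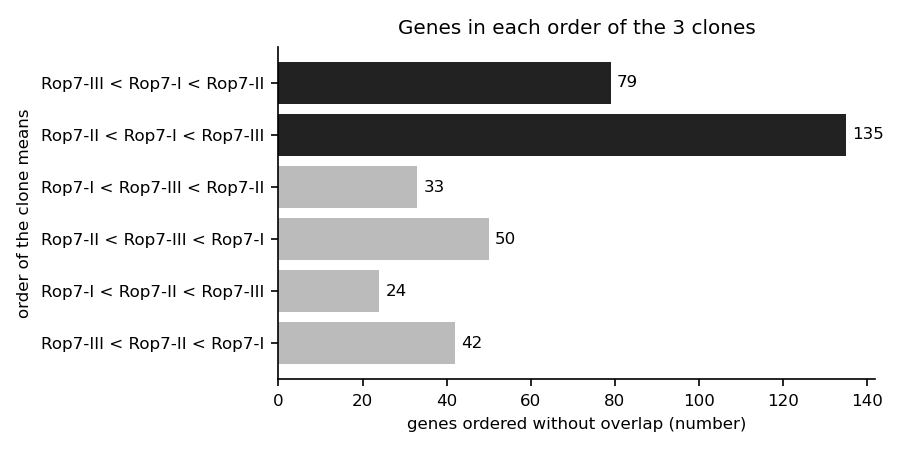
Number of genes, on the horizontal axis, whose replicates do not overlap between any 2 clones, for each of the 6 orders of the clone means. Black bars, with Rop7-I in the middle, reach 135 and 79, while grey bars, with another clone in the middle, lie between 24 and 50.

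The other orders held differences as large as the graded genes did. The median difference between the outer clones was 0.79 for rising and 0.80 for falling genes, and between 0.79 and 1.12 in the other orders. The largest was 3.48 among rising, 3.67 among falling and 4.24 among the remaining genes. That last value was of Gbp2b, an interferon-induced GTPase, with means of 5.84, 49.98 and 27.7 TPM in Rop7-II, Rop7-I and Rop7-III. Kit, a receptor tyrosine kinase, had means of 9.90, 0.0533 and 11.8 TPM in Rop7-II, Rop7-I and Rop7-III, with Rop7-I lowest.

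Genes were also chosen in 2 replicates of each clone and read in the replicate left out. The order itself still came from Cd5 in all 9 samples. When genes were chosen in the replicates numbered 2 and 3, 146 of 205 rising (71.2%) and 95 of 122 falling genes (77.9%) had the same order of all 3 clones in the samples numbered 1. Over all genes with a maximum over 5 TPM in the samples used, these orders were found in 17.0% and 25.0%. With replicate 2 held out, 164 of 190 rising (86.3%) and 102 of 163 falling genes (62.6%) kept the order, against 18.1% and 17.0% over all genes. With replicate 3 held out the counts were 153 of 173 (88.4%) and 88 of 116 (75.9%), against 20.3% and 19.9%. In the other 4 orders between 50.5% and 76.4% of the chosen genes kept their order in the held-out samples. Keeping the order was thus not particular to the order of Cd5. Genes chosen for separated clones differ more than most genes, so that a higher share than over all genes was to be had in any order.

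Genes lay close to the limits of the rule on both sides. Just inside the minimum difference were Nrip1 (0.50) and Ralb (-0.51), and just outside were Man2a1 and Gm614, each at 0.498 in size. Fgd6 (5.33 TPM) and Hes5 (5.70 TPM), a target of Notch signals that fell, had the lowest maxima inside, and Phlpp2 (4.94 TPM) and Emid1 (4.98 TPM) the highest maxima outside. The smallest gaps between clones were in Mctp2 (0.0035) and Cd9 (0.00098) on the log2 scale, while Itpr1 and Sgcb overlapped by 0.00043 and 0.0016. Of 303 genes over 5 TPM with rising means at least 0.5 apart, 168 had overlapping replicates, and of 325 with falling means 246 did.

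The rule put Rop7-I between the other clones but on neither side of their midpoint. On a scale from 0% at the Rop7-II mean to 100% at the Rop7-III mean, the median position of Rop7-I was 54.5% ± 2.11 for rising and 50.8% ± 4.93 for falling genes (SD over 3 medians, each taken with 1 Rop7-I replicate in place of their mean). Single genes ranged from 11.8% to 89.6% among rising and from 11.7% to 87.0% among falling genes. No test of the position is given for these genes, because the same values chose them.

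**Figure D2:**
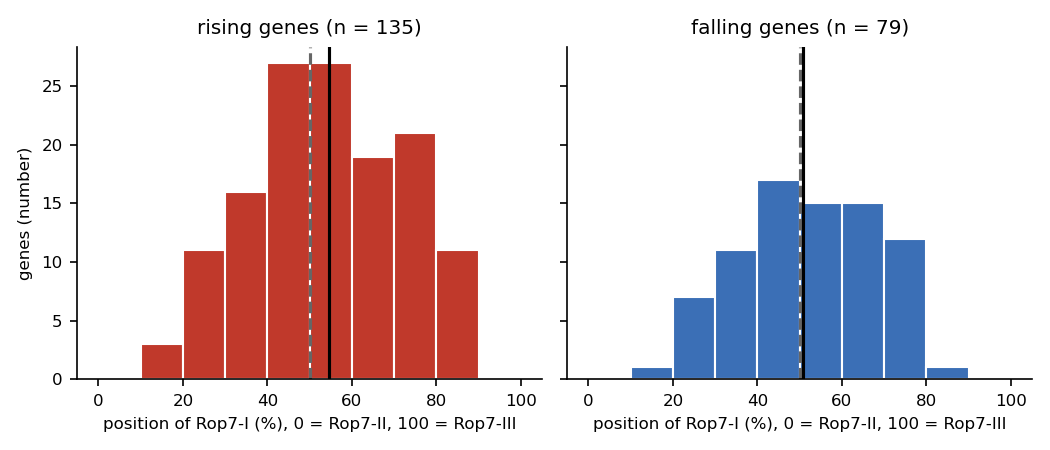
Number of rising (left) and falling genes (right) by the position of the Rop7-I mean between the Rop7-II mean (0%) and the Rop7-III mean (100%), in bins of 10 percentage points. The dashed line is the midpoint and the solid line the median, at 54.5% for rising and 50.8% for falling genes.

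Several rising genes had Rop7-I far from the midpoint. Smc6, a subunit of the SMC5/6 complex that maintains chromosomes, was at 97.4, 115 and 96.1 TPM in Rop7-II, 374, 378 and 389 in Rop7-I, and 477, 448 and 478 in Rop7-III. The Rop7-I mean lay at 86.4% of the way. It was also near Rop7-III in Msgn1, Dapl1, Cdc42ep3, 2810474O19Rik and Tspan13, at 76.9% to 87.4% of the way. Near Rop7-II it lay in A430093F15Rik, at 11.8%, and in Gch1, which encodes the first enzyme of tetrahydrobiopterin synthesis, at 15.4%. Gch1 was at 5.75, 4.91 and 5.77 TPM in Rop7-II, 6.15, 7.11 and 6.41 in Rop7-I and 16.5, 16.6 and 16.8 in Rop7-III. In the falling genes Tmie and Als2cl the Rop7-I mean also lay nearer to Rop7-II. All genes named in this paragraph so far passed a limma comparison of Rop7-I with the midpoint. It was run on the values that chose them, so that their naming is no evidence. Other graded genes lay as far out, such as Sptbn1 (88.2%), Trim59 (82.8%) and Phf13 (15.7%) among rising and Gm16907 (87.0%) and Ung (11.7%) among falling genes.

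The gradient was most even in a few genes with a difference of at least 1. Ptger2, a receptor for prostaglandin E2, was at 0.600, 0.220 and 0.190 TPM in Rop7-II, 1.83, 2.70 and 1.55 in Rop7-I and 6.71, 6.24 and 5.25 in Rop7-III, with Rop7-I at 48.7% of the way. Klrd1, which encodes the CD94 chain of NK-type receptors, had Rop7-I at 50.5%, and Sidt1 at 51.8%. Among falling genes with a difference of at least 1, Dtx1 (48.2%), Ntrk3 (48.4%) and the glycosyltransferase Galnt9 (48.9%) were nearest to the midpoint.

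**Figure D3:**
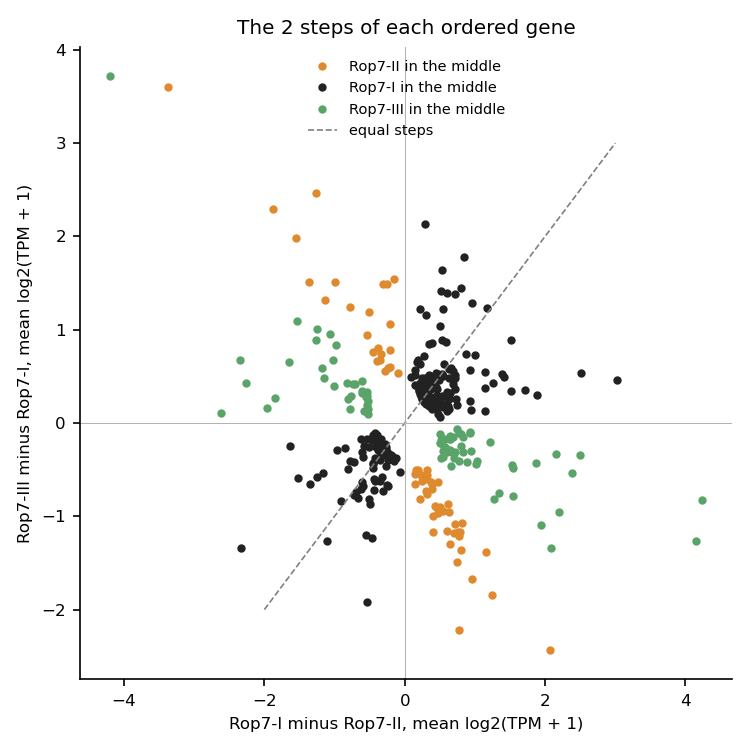
Step from Rop7-II to Rop7-I (horizontal axis) against step from Rop7-I to Rop7-III (vertical axis), in mean log2(TPM + 1), for the 363 genes ordered without overlap, 1 point a gene. The 214 graded genes (black) lie where both steps have 1 sign, on both sides of the line of equal steps, and genes with Rop7-II or Rop7-III in the middle (orange and green) lie where the steps differ in sign.

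Among the 135 rising genes, 46 differed by at least 1 on the log2 scale and 13 by at least 2. The largest difference was in Msgn1, a basic helix-loop-helix factor known from early mesoderm, on chr12:11208382-11208948. It was at 3.51, 5.01 and 2.16 TPM in Rop7-II, 32.1, 34.7 and 37.9 in Rop7-I, and 47.8, 44.1 and 53.3 in Rop7-III, a difference of 3.48 (standard error 0.19) in log2(TPM + 1). Rop7-I stood close to Rop7-III and far above Rop7-II. Dapl1, named for its likeness to a death-associated protein, was at 29.3, 53.8 and 43.8 TPM in Rop7-II, 256, 260 and 207 in Rop7-I, and 354, 364 and 329 in Rop7-III, a difference of 3.06. Ccl5, a chemokine stored by memory CD8 T cells, was at 6.51, 2.42 and 3.48 TPM in Rop7-II, 9.03, 7.28 and 6.92 in Rop7-I, and 26.4, 29.6 and 30.4 in Rop7-III, a difference of 2.61. In Ccl5 the larger step was the second, from Rop7-I to Rop7-III.

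The other rising genes with the largest differences were of several kinds. A430093F15Rik, a long noncoding RNA (2.42), Rhod, a small GTPase (2.41), Ptger2 (2.41), Slc43a1, a transporter of neutral amino acids (2.26), Ubash3b (2.25), Smc6 (2.18) and Top2a (2.17) followed. Slc43a1 was at 1.09, 0.670 and 0.860 TPM in Rop7-II, 1.59, 2.57 and 2.75 in Rop7-I, and 10.2, 7.85 and 6.15 in Rop7-III. Several of these were low: A430093F15Rik, Rhod, Ptger2 and Slc43a1 were at or under 1.09 TPM in all Rop7-II samples, and adding 1 TPM before the log draws their differences towards 0.

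Among the 79 falling genes, 28 differed by at least 1 and 5 by at least 2. The largest difference of all graded genes was in Slc6a19, a transporter of neutral amino acids known from gut and kidney, on chr13:73679745-73700780. It was at 396, 349 and 403 TPM in Rop7-II, 74.5, 64.7 and 88.6 in Rop7-I, and 32.6, 24.3 and 31.2 in Rop7-III, a difference of -3.67 (standard error 0.13). Tmie, which encodes a membrane protein of hair-cell mechanotransduction, was at 107, 93.8 and 121 TPM in Rop7-II, 67.6, 77.0 and 75.8 in Rop7-I, and 21.5, 19.6 and 15.5 in Rop7-III, a difference of -2.45. Pcsk1, a proprotein convertase, was at 18.5, 23.2 and 16.5 TPM in Rop7-II, 10.8, 9.50 and 5.66 in Rop7-I, and 3.08, 3.20 and 2.49 in Rop7-III, a difference of -2.37. The fall was thus mostly on the first step in Slc6a19 and on the second in Tmie.

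Ddr1, a collagen receptor kinase, was at 18.3, 5.65 and 23.2 TPM in Rop7-II, 4.03, 3.70 and 4.51 in Rop7-I, and 2.08, 2.77 and 2.32 in Rop7-III. Its difference of -2.11 had the standard error 0.39, and Rop7-II replicate 2 lay far below the other Rop7-II samples. In Ly6e, a GPI-anchored surface protein (-1.83), the same sample was also low, at 106 TPM against 207 and 213 TPM, and Rop7-I was at 62.2 to 79.9 TPM and Rop7-III at 43.1 to 51.6 TPM. Rgcc, a regulator of the cell cycle, was at 241, 210 and 235 TPM in Rop7-II, 124, 112 and 127 in Rop7-I, and 69.3, 67.7 and 63.9 in Rop7-III, a difference of -1.76 (standard error 0.06) with nearly equal steps. Notch3 (-2.004), the long noncoding RNA Gm16907 (-1.88) and Als2cl (-1.70) were also among the 10 largest.

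**Figure D4:**
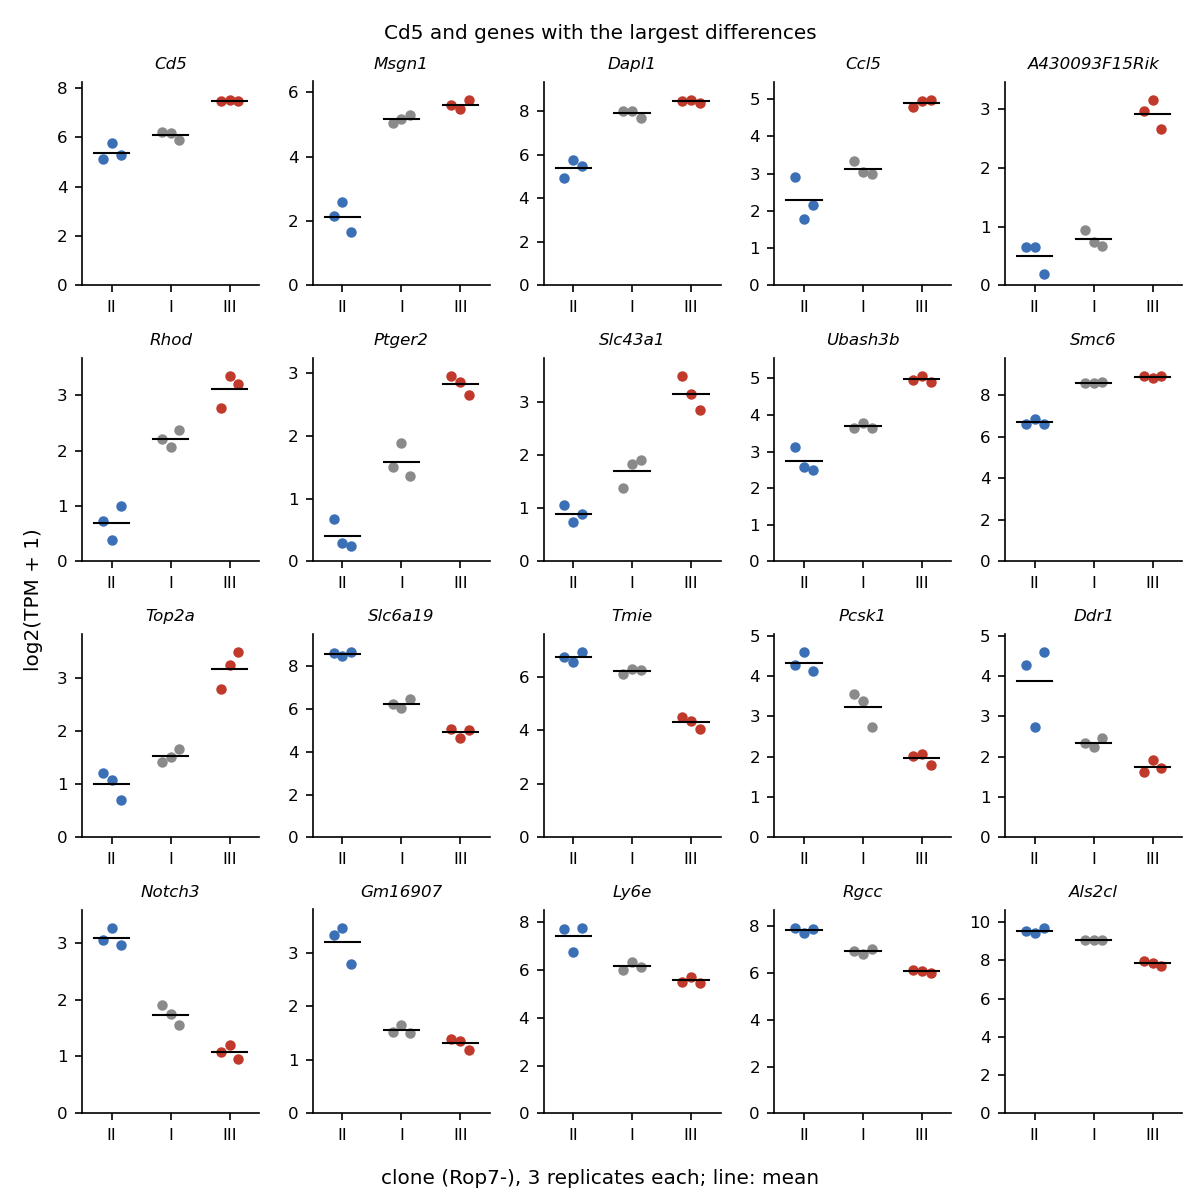
Each panel plots log2(TPM + 1) of 1 gene in the 3 replicates of Rop7-II (blue), Rop7-I (grey) and Rop7-III (red), with a line at the clone mean and an axis from 0. Replicates of neighbouring clones do not overlap in any panel, which the rule required, and Rop7-I lies near Rop7-III in Msgn1, Dapl1 and Smc6 and near Rop7-II in A430093F15Rik and Tmie.

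Regulators of TCR signalling were among the rising genes. Of 36 genes of TCR feedback over 5 TPM, 5 were graded (13.9%, against 2.13% of all genes over 5 TPM), and all 5 rose: Ubash3b, Cd5, Cd6, Sh2d2a and Sla. Cd5 itself set the order, so that its rise was fixed in advance and adds nothing to this share. Ubash3b encodes a phosphatase that limits TCR signals, and was at 7.72, 4.98 and 4.64 TPM in Rop7-II, 11.6, 12.7 and 11.6 in Rop7-I, and 30.3, 32.5 and 29.2 in Rop7-III. Cd6, a receptor related to CD5, was at 51.6, 78.3 and 50.5 TPM in Rop7-II, 91.3, 85.2 and 81.8 in Rop7-I, and 208, 212 and 186 in Rop7-III, a difference of 1.76. Its highest Rop7-II and lowest Rop7-I samples were close. Sh2d2a, an adaptor bound by Lck, was at 70.9 to 91.5 TPM in Rop7-II, 110 to 131 in Rop7-I and 136 to 145 in Rop7-III, and the adaptor Sla differed by 0.74. Lists were chosen with earlier results of these data known, so that such shares are no independent evidence.

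Most genes of TCR feedback did not follow this order. Over the whole list, limma called 9 of 39 tested genes higher and 4 lower in Rop7-III against Rop7-II (Benjamini-Hochberg adjusted p under 0.01 over 12115 genes with a maximum over 1 TPM), beside 6.39% and 5.89% of all 12115 genes, and the median difference was 0.03 (-0.02 over all genes tested). Dusp4, a MAPK phosphatase, was at 0.360 to 1.14 TPM in Rop7-II, 0.960 to 1.52 in Rop7-I and 3.85 to 5.09 in Rop7-III, and Rop7-II and Rop7-I overlapped. Dusp2 was lowest in Rop7-I, at 115 to 128 TPM. Of 31 genes of proximal TCR signalling, only Cd2, an adhesion receptor, was graded (3.23%, near the 2.13% over all genes), with a difference of 0.54. Cd3e and Lck, the defining genes of this list, were not. The immediate early list had 0 of 17 genes graded, too few genes for a share of 2.13% to show.

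Of 21 cytokine receptor and 18 costimulatory genes over 5 TPM, 3 (14.3%) and 2 (11.1%) were graded, all of them rising, against 2.13% of all genes over 5 TPM graded in either direction. The median difference over the tested genes of these lists was 0.17 and -0.0090. Il7r, the receptor chain for the survival cytokine IL-7, was at 300, 318 and 333 TPM in Rop7-II, 473, 525 and 533 in Rop7-I, and 747, 730 and 771 in Rop7-III, a difference of 1.24 (standard error 0.05). It had the highest level of the rising receptors named. Il10ra (0.77) and Il6ra (0.52) also rose. Il2rb and Il2rg, which carry the signals of the IL-2 added to all cultures, were not graded, at 75.9 to 95.8 and 585 to 665 TPM over the 9 samples. Among costimulatory genes Cd28 was at 93.6, 97.6 and 102 TPM in Rop7-II, 129, 131 and 139 in Rop7-I, and 156, 151 and 160 in Rop7-III, and Cd101, an inhibitory receptor of the immunoglobulin superfamily, rose by 1.72. Icos and Ctla4, of the same list, were not graded.

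Genes of homing and adhesion were graded in both directions. Itgae, the αE chain of the integrin CD103 that binds E-cadherin, was at 244, 254 and 235 TPM in Rop7-II, 145, 114 and 164 in Rop7-I, and 104, 98.1 and 94.6 in Rop7-III, a difference of -1.30. Itgb7, the β chain with which it pairs, fell by 0.60 on the log2 scale, and the tetraspanin Cd9 had a difference of -0.73. In the opposite direction, Itga9, an integrin chain that pairs with β1, was at 2.14, 3.01 and 2.63 TPM in Rop7-II, 3.08, 5.44 and 4.09 in Rop7-I, and 14.8, 12.4 and 10.98 in Rop7-III. With Ccl5, 2 genes rose and 3 fell of 29 over 5 TPM (17.2% graded, against 2.13% of all genes over 5 TPM). Ccr7, a chemokine receptor of lymph node homing, was not graded: it was at 788 to 831 TPM in Rop7-II, 680 to 692 TPM in Rop7-I and 728 to 745 TPM in Rop7-III, and so was lowest in Rop7-I.

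In the list of T-cell transcription factors, 5 of 45 genes over 5 TPM were graded (11.1%, against 2.13% of all genes over 5 TPM). The count includes Dtx1, which encodes a ubiquitin ligase and is also in the Notch list. Runx2 was at 5.68, 6.10 and 5.46 TPM in Rop7-II, 7.70, 8.36 and 6.80 in Rop7-I, and 15.2, 13.5 and 14.7 in Rop7-III, a difference of 1.19. Stat4, which transmits IL-12 signals (0.94), Gata3 (0.85) and Ikzf2 (0.66) rose too. Tcf7 and Lef1, factors of naive T cells, were not graded, and their differences were 0.06 and -0.08. Dtx1, which encodes a ubiquitin ligase of the Notch pathway, fell, at 56.5, 61.2 and 51.2 TPM in Rop7-II, 39.0, 37.5 and 28.0 in Rop7-I, and 18.6, 23.6 and 18.9 in Rop7-III. Id2, an inhibitor of E proteins that promotes effector cells, is in another list, of effector and memory genes, and had a difference of -0.52. Of 24 genes of that list over 5 TPM, 3 were graded (12.5%, against 2.13% of all genes): Dapl1 and Klrd1 rose and Id2 fell. In limma 5 of its 30 tested genes were higher and 4 lower in Rop7-III against Rop7-II, beside 6.39% and 5.89% of all genes tested. Their median difference was -0.32 (-0.02 over all genes tested).

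In the Notch list, 3 of 23 genes over 5 TPM were graded (13.0%, against 2.13% of all genes over 5 TPM). The receptor Notch3 was at 7.23, 8.55 and 6.73 TPM in Rop7-II, 2.72, 2.36 and 1.93 in Rop7-I, and 1.11, 1.30 and 0.940 in Rop7-III. Dtx1 fell with it, while the coactivator Maml2 had a difference of 0.50 in the other direction. Notch1, the main receptor of the family in T cells, was not graded, at 62.1 to 81.2 TPM over all samples.

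Enzymes that build glycans had 4 rising and 1 falling gene of 30 over 5 TPM (16.7% graded, against 2.13% of all genes over 5 TPM). St3gal6, a sialyltransferase, was at 7.41, 5.40 and 2.40 TPM in Rop7-II, 15.9, 19.6 and 17.7 in Rop7-I, and 23.9, 24.3 and 20.4 in Rop7-III, a difference of 2.07. St8sia6, which adds α2,8-linked sialic acid, had a difference of 1.69, St8sia4 0.52, and Mgat5, which makes branched N-glycans, 1.17. In 3 of these 4, Rop7-I lay past 67% of the way to Rop7-III, and in St8sia4 at 64.8%. Galnt9 fell, at 16.8 to 21.7 TPM in Rop7-II and 6.68 to 9.24 TPM in Rop7-III.

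In the graded genes of the G2/M phase Rop7-I stood nearer to Rop7-II. Of 32 over 5 TPM, Top2a, Birc5 and Smc4 were graded (9.38%, against 2.13% of all genes over 5 TPM). Rop7-I lay at 24.4%, 20.5% and 22.6% of the way in them. Top2a, the topoisomerase of dividing cells, was at 1.32, 1.12 and 0.620 TPM in Rop7-II, 1.67, 1.84 and 2.16 in Rop7-I, and 5.89, 8.38 and 10.2 in Rop7-III. Mki67, which encodes Ki-67, was not graded, since Rop7-I (1.48 to 2.72 TPM) overlapped Rop7-II (1.07 to 1.75 TPM), while Rop7-III was at 6.60 to 10.5 TPM. In limma 12 of 51 tested genes of this list were higher and 1 lower in Rop7-III against Rop7-II, and 11 were higher and 2 lower against Rop7-I. Between Rop7-I and Rop7-II 0 passed an adjusted p under 0.01 and 8 had an unadjusted p under 0.05, against 3884 of all 12115 genes. Over all genes tested, Rop7-III had 2.58% of genes higher and 2.28% lower against Rop7-I, and Rop7-I had 3.67% higher and 3.85% lower against Rop7-II. Of the S-phase list, Ung, a uracil glycosylase of DNA repair, had a difference of -0.59. It was graded alone among 31 genes (3.23%, near the 2.13% over all genes).

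Families of related genes held falling genes. Ly6e, Gimap7 and Gimap9 fell among 14 Ly6 and Gimap genes over 5 TPM (21.4% graded, against 2.13% of all genes over 5 TPM). Gimap7, a GTPase of the immunity-associated family, was at 193, 196 and 232 TPM in Rop7-II, 153, 147 and 150 in Rop7-I, and 118, 109 and 104 in Rop7-III. Gimap4 and Gimap3 were not graded. H2-K1, a heavy chain of MHC class I, was the only graded gene of 31 in the MHC class I list (3.23%, near the 2.13% over all genes). It was at 2959, 2257 and 3079 TPM in Rop7-II, 2190, 2148 and 2144 in Rop7-I, and 1890, 1869 and 2015 in Rop7-III. B2m, its light chain, was not graded. In limma 15 of the 32 tested genes of this list were lower and 0 higher in Rop7-III against Rop7-II, beside 5.89% and 6.39% of all genes tested. Against Rop7-I, 13 were lower and 0 higher in Rop7-III, beside 2.28% and 2.58% of all genes tested. The median differences of the list were -0.20 and -0.28. Reads can be shared where members of a family are alike in sequence, so that single values can be uncertain. How alike these genes are was not measured here.

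The lists of interferon-stimulated genes (37 over 5 TPM), glycolysis (27), apoptosis (25), cytosolic ribosomal proteins (81), the respiratory chain (78) and histones (19) had 0 graded genes. With 2.13% of all genes over 5 TPM graded, lists of these sizes would hold few or none, so that these counts say little. Of the interferon-stimulated list, 9 genes were ordered with another clone in the middle, beside 149 of all 10037 genes over 5 TPM. In limma 13 of its 42 tested genes were above the midpoint of the other clones in Rop7-I and 0 below it, against 2.01% above and 2.11% below over all genes tested.

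**Figure D5:**
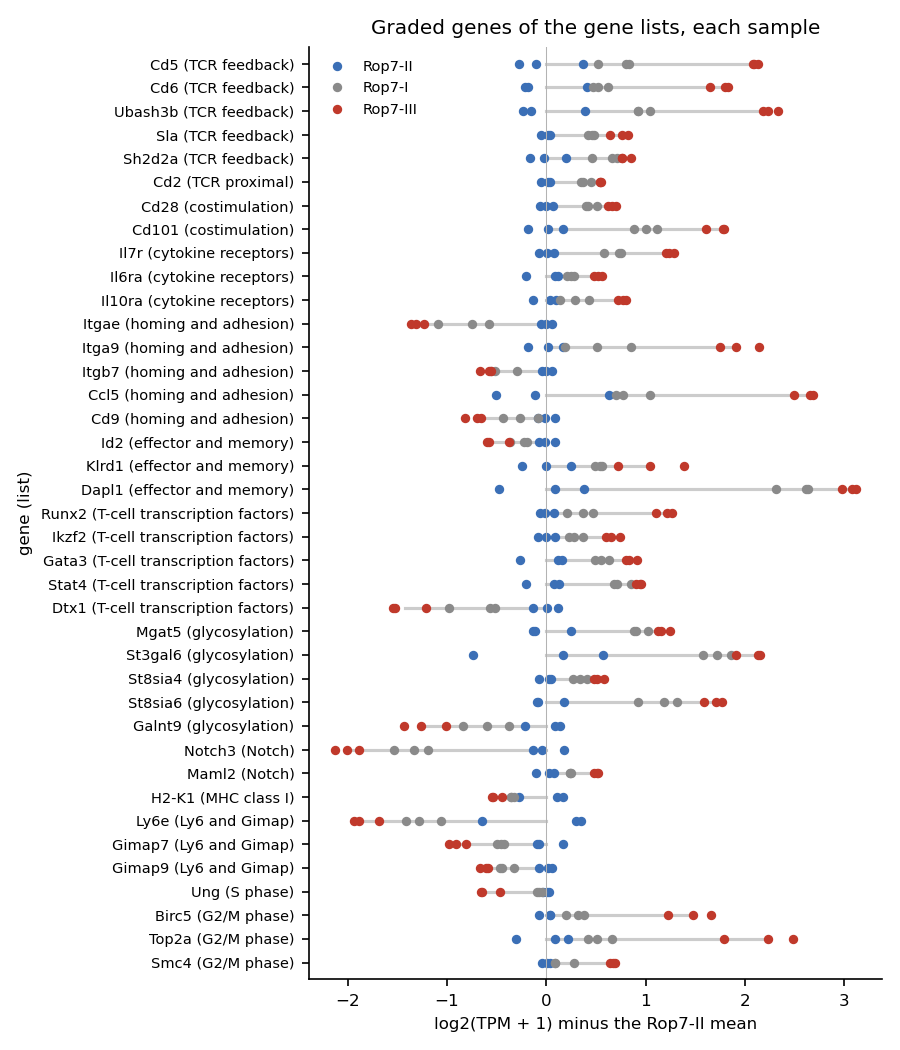
Each row is a graded gene of the gene lists, named with the first list that holds it, and each point a sample, as log2(TPM + 1) minus the mean of the Rop7-II replicates. Rising genes extend to the right and falling genes to the left, with Rop7-I (grey) between Rop7-II (blue) and Rop7-III (red) in every row, as the rule required.

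The positions of the genes on the chromosomes were not used by the rule. All 214 graded genes were placed on GRCm38, 12 of them through an older symbol, and 205 were protein-coding. Of these 214, 72 (33.6%) had another graded gene within 1 Mb, against 26.3% of 9996 genes over 5 TPM and 24.3% of 148 genes of the other 4 orders. These 72 formed 29 groups, of which 18 held genes of 1 direction. Within 20 Mb of the Tcra locus lay 3 graded genes (1.40%, against 1.85% of genes over 5 TPM) and within 20 Mb of Tcrb lay 5 (2.34%, against 1.21%).

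Cd5 itself lay in the largest group, of 5 genes on chromosome 19. Cd5 (chr19:10718107-10739026), A430093F15Rik (chr19:10740947-10786043) and Cd6 (chr19:10789339-10830062) follow each other directly. A430093F15Rik was at 0.570, 0.580 and 0.140 TPM in Rop7-II, 0.930, 0.670 and 0.590 in Rop7-I, and 6.77, 7.88 and 5.29 in Rop7-III. All 3 rose, with Rop7-I between 11.8% and 34.0% of the way. Less than 1 Mb away, Ms4a6c and Gm8369 fell, by 0.63 and 0.92 on the log2 scale.

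Other neighbours of 1 direction had like or unlike positions of Rop7-I. Msgn1 and Smc6, on chromosome 12 with a gap of 56.9 kb between them, had Rop7-I at 86.8% and 86.4% of the way. Dapl1 and Pkp4, a plakophilin, on chromosome 2 had it at 82.4% and 74.2%. Tmie and Als2cl start on opposite strands of chromosome 9, 101 bases apart from 1 listed start of Als2cl and 249 bases from the other, so that the promoter window printed for Tmie also covers both starts of Als2cl. Als2cl was at 735, 684 and 821 TPM in Rop7-II, 541, 533 and 536 in Rop7-I, and 249, 232 and 206 in Rop7-III, with Rop7-I at 27.7% of the way, and at 21.7% in Tmie. On chromosome 3, Cd101, Ptgfrn and Cd2 all rose, with Rop7-I at 57.8%, 30.4% and 71.9%. Smc4 and Trim59, with a gap of 0.669 kb, had it at 22.6% and 82.8%, and Rhod and Syt12, with a gap of 6.37 kb, at 63.0% and 25.4%. Gsg2, a kinase of mitosis (-1.19), lies within Itgae and fell with it. Because the libraries did not keep strand, reads from sequence that both genes cover cannot be told apart by strand.

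Not all groups were of 1 direction. On chromosome 13 Gm16907 fell while Habp4 (0.52), Cdc14b (0.58) and Ctsl (0.79) rose, and on chromosome 2 Patl2 rose (0.64) beside the falling nucleoside transporter Slc28a2 (-0.65) with Bambi-ps1 (-0.92) and Gm14085 (-0.67). On chromosome 6 Igf2bp3 rose (1.23) within 1 Mb of Gimap7 and Gimap9, while Atn1 (-0.58), Lrrc23 (-1.15) and Cd9 formed a falling group. On chromosome 7 Phldb3 rose (1.54) beside the falling D930028M14Rik (-1.24) and Erf (-0.53). The groups of Crim1, Prkd3 and Cdc42ep3 on chromosome 17, of 1110032F04Rik, Smc4 and Trim59 on chromosome 3, and of Slc25a40, Abcb1b and Tmem243 on chromosome 5 all rose, by 0.50 to 1.62.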

How the data were processed

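Polyadenylated RNA, 200 ng per sample, was sequenced without strand information. The authors estimated gene expression with RSEM 1.2.11 on RefSeq genes of the mouse mm10 build (per the submitters' processing notes and the study's methods) and deposited TPM values with 2 decimals for 24060 genes in 9 samples. The study's methods give a typical depth for these libraries, but TPM keeps no read counts, so the depth of each sample cannot be read from the values and no counting interval was computed. The authors tested counts with DESeq2 1.8.1, which TPM does not allow.

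Here values were taken as log2(TPM + 1), and differences are on that scale. Clones were compared with limma 3.58.1 in R 4.3.3 (trend, all 9 samples, genes with a maximum over 1 TPM, Benjamini-Hochberg adjusted p under 0.01), tested on simulated data. Replicates are those of the labels, and p-values measure the spread between these samples. The members, gene lists and motifs were chosen with earlier results of these data known.

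Named are Cd5, Nr4a1, Mki67, the 10 largest differences in each direction, up to 4 graded genes per list with up to 2 defining genes that were not graded, 3 per direction nearest the midpoint, genes nearest a limit, and graded neighbours of Cd5 or in groups of 3 or more within 1 Mb. Other genes named were chosen after their values were seen, and some genes that meet the rule are not reported here. Positions and promoters are from RefSeq on GRCm38.p6, the build of mm10. Alternatives were the pseudocount, the filter on low values, the minimum difference, a common median, quantile normalization, limma calls in place of no overlap, no trend, the replicate number as a block, and each sample left out.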

Additional observations from a re-analysis of the deposited data

How the results depend on the processing

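Each sample left out in turn gave 138 to 168 rising and 83 to 130 falling genes, more than with all samples because a rule on fewer replicates is easier to meet. The highest falling count came without Rop7-II replicate 2, against 83 to 102 without another sample. The median position of Rop7-I was then 51.7% to 57.4% for rising and 49.7% to 55.5% for falling genes. A minimum difference of 0.25 gave 245 rising and 165 falling genes and one of 1 gave 46 and 28. Limma calls in all 3 pairs at an adjusted p under 0.05 in place of no overlap gave 65 and 38, and with the replicate number as a block 62 and 33. Rop7-I lay in the middle for 54.8% to 63.6% of ordered genes under all of these settings.

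For Rop7-III against Rop7-II, 1488 genes passed, 3041 with the limit at 0.05, 811 without the filter and 834 to 1315 without 1 sample. For Rop7-III against Rop7-I, 588 passed, and under the same settings 1586, 212 and 258 to 830, with 373 in the block. For Rop7-I against Rop7-II, 912 passed, then 2163, 399 and 416 to 875, with 600 without a trend. For Rop7-I against the midpoint, 500 passed, then 1460, 193 and 167 to 679, with 306 in the block and 291 without a trend. The block changed no other count by more than 1.5 times. Deviations of same-numbered samples from their clone means correlated with r of -0.388 to 0.106, and those of samples of unlike number with r of -0.177 to 0.324. With means of only 3 samples, these values cannot settle whether the numbers pair the samples. Of 1001 values of named genes under alternatives, 24 moved by more than the spread between replicates, all with another pseudocount, and 0 of the graded genes changed sign. With a pseudocount of 0.1 TPM in place of 1 the log2 difference of Rop7-III from Rop7-II went from 2.42 to 3.80 for A430093F15Rik and from 2.41 to 3.93 for Ptger2, the only graded genes among those named that it moved by more than 1.5 times.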

Other observations

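Without the minimum difference of 0.5, 294 of 10037 genes had rising and 242 falling means in the order of Cd5 with no overlap, 159 and 163 of them under it. Under the minimum, 1 rising (Laptm5) and 2 falling genes (Ptpn6 and Csk) were among the 36 of TCR feedback, and 1 rising (Themis) and 1 falling gene (Cd8a) among the 31 of proximal TCR signalling. Cd8a, the α chain of the coreceptor, was at 785, 839 and 835 TPM in Rop7-II, 719, 665 and 722 in Rop7-I, and 627, 606 and 637 in Rop7-III, a difference of -0.39. Cd8b1, the β chain, had a difference of -0.13 and was not ordered without overlap. Ptpn6, which encodes the phosphatase SHP-1, had means of 199 ± 45.7, 156 ± 2.62 and 143 ± 7.46 TPM (SD, n = 3) in Rop7-II, Rop7-I and Rop7-III. Csk, the kinase that restrains Lck, had means of 306, 288 and 276 TPM, and Laptm5, a lysosomal protein that limits the TCR at the surface, 1488, 1596 and 1720 TPM.

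Other genes under the minimum had rising means. Themis, which modulates TCR signals in thymocytes, had means of 127 ± 4.61, 137 ± 3.88 and 148 ± 1.40 TPM (SD, n = 3), and Bcl2l11, which encodes the death factor BIM, 62.5 ± 3.49, 76.2 ± 5.28 and 83.5 ± 0.997 TPM (SD, n = 3). Among glycan enzymes Man1a, Man2a1 and St6gal1 had differences of 0.38, 0.50 and 0.16 in mean log2(TPM + 1). These genes were noticed after their values were seen, and no test was run on their order.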
